A study of Homo sapiens with 4 samples.

Results

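Telomerase and shelterin were described by 8 genes in the 4 libraries, namely *TERT*, *TERF1*, *TERF2*, *TERF2IP*, *POT1*, *TINF2*, *ACD*, and *RTEL1*. The members were taken by name, and no measured value entered their selection rule, although earlier results of these data were known when they were chosen. All 8 were found among the 18449 gene symbols of the filtered count table, and all 8 were among the 18066 symbols with at least 1 count. RNA was sequenced from BT-16 and CHLA-266, established patient-derived lines of the MYC subgroup of atypical teratoid/rhabdoid tumor (AT/RT), a malignant brain tumor. Untreated cells of each line were compared with cells of the same line given 1 µM doxorubicin, then 5 µM etoposide, and then 1 µM vincristine. Doxorubicin and etoposide block topoisomerase II, and vincristine blocks microtubule assembly. According to the methods, most cells died, and the treated libraries hold the cells that grew again. There was 1 library per line and condition, so the 2 lines were the only replicates (*n* = 2 per condition), and the spread is that between lines.

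Telomeres are repeats at chromosome ends that shorten when cells divide. Telomerase adds repeats back, with *TERT* encoding its reverse transcriptase subunit and *TERC* its RNA template. Shelterin is the protein complex that coats these repeats. TRF1 (*TERF1*) and TRF2 (*TERF2*) bind the double-stranded repeats, and RAP1 (*TERF2IP*) binds TRF2. POT1 binds the single-stranded overhang together with TPP1 (*ACD*), which also recruits telomerase, and TIN2 (*TINF2*) joins these proteins to one another. *RTEL1* encodes a helicase that unwinds telomeric loops and is a subunit neither of telomerase nor of shelterin. Most malignant tumor cells keep *TERT* active, while most adult somatic cells do not.

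Promoter windows are shown for *TERT* and *ACD*, the members with the largest falls after treatment, and for *TERF2IP*, a member that rose. Each window holds the 250 bases before the RefSeq start site on GRCh38.p14, written 5′ to 3′ on the strand of the gene. Capitals mark matches, on either strand, to the E-box CACGTG (bound by MYC with MAX) and the GC box GGGCGG (bound by SP1 and SP3). They also mark matches to the ETS motif CCGGAA. Only these exact letters were searched for each motif. These motifs do not overlap one another in the windows shown. The *TERT* window lies at chr5:1295069-1295318 on the minus strand, the *ACD* window at chr16:67660261-67660510 on the minus strand, and the *TERF2IP* window at chr16:75647523-75647772 on the plus strand.
TERT: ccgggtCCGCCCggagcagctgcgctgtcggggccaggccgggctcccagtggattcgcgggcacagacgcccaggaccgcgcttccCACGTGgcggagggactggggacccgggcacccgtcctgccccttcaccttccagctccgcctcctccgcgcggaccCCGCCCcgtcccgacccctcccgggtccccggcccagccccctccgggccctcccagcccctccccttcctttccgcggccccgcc
ACD: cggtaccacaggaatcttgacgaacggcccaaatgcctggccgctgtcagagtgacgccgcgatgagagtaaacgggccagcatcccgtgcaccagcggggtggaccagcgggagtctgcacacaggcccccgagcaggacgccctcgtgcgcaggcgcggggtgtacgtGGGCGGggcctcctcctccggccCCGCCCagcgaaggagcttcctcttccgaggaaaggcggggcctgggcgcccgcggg
TERF2IP: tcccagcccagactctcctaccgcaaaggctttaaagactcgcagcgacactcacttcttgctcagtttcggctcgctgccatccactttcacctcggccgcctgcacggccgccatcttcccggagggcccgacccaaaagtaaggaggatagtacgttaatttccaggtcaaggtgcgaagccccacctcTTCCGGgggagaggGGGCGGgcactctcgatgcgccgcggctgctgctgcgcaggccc

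The *TERT* window held 1 E-box, 163 bases before the start, and GC boxes 244 and 86 bases before it, and its GC content was 78.8%. The *ACD* window held GC boxes 80 and 57 bases before the start, with no E-box and no exact match to CCGGAA. The *TERF2IP* window held an ETS motif at 58 and a GC box at 44 bases before the start. *KARS1* lies on the opposite strand and shares 176 exon bases with *TERF2IP*, so this window may not belong to *TERF2IP* alone. RefSeq windows were found for 6 of the 8 members, of which *TINF2* and *RTEL1* have 2 start sites each, and *TERF1* and *TERF2* were not matched. *TERT* was the only 1 of these 6 genes with an E-box, a motif held by 6.34% of all 35116 windows of this length. A GC box was present in 6 of 6 genes and in 42.6% of all windows. The ETS motif was present in 4 of 6 genes and in 14.5% of all windows. A gene was counted if any of its windows held the motif, while the percentages count single windows. *TINF2* and *RTEL1* held the ETS motif at only 1 of their 2 start sites, and *RTEL1* likewise the GC box. A match to these letters describes the sequence and does not show binding.

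The libraries held 49849257 to 75087193 counts, fewer in the treated cells of each line. Values are in counts-per-million (CPM) scaled by the TMM method, which sets libraries to a common level. Genes detected numbered 15464 and 16079 in the untreated and 17114 and 17815 in the treated libraries. *SMARCB1*, the gene whose loss defines most AT/RT, had 827 to 1394 counts per library. The labelled tumor type was thus not visible as an absence of *SMARCB1* RNA. *SMARCA4*, the other marker listed for the tumor, was at 862 and 904 CPM in untreated BT-16 and CHLA-266. It was at 509 and 687 CPM in the treated cells, and 1 of these 2 markers was called lower. Of other cell types, the summed markers of endothelial cells were at 0.747 to 0.957 CPM in untreated and 7.31 to 9.98 CPM in treated libraries, with 3 of 4 markers called higher. Epithelial markers summed to 158 to 339 CPM and 343 to 848 CPM, with 2 of 4 (*KRT8* and *KRT18*) called higher. Neither *EPCAM* (9 and 36 counts in BT-16, 12 and 11 in CHLA-266) nor *CDH1* (30 and 132, 6 and 94) was called. Neuronal markers summed to 14.8 to 16.2 and 22.8 to 23.8 CPM, with 2 of 4 called higher. Macrophage markers summed to 3.28 to 6.51 and 5.81 to 8.94 CPM (2 of 6 higher). The lines went in opposite directions for *PTPRC* and *CSF1R*. Treated BT-16 had less *PTPRC* than untreated BT-16 (2.9 against 4.2 CPM), while treated CHLA-266 had more (1.2 against 0.49 CPM). For *CSF1R*, treated BT-16 had more (4.5 against 2.2 CPM) and treated CHLA-266 less (1.9 against 2.7 CPM). *AIF1* had 0 counts in both untreated libraries and 27 and 55 in treated BT-16 and CHLA-266, and *CD163* went from 8 to 56 and from 0 to 63, while *CD68* had at most 3 counts in any library. T cell markers reached at most 1.63 CPM (1 of 3 higher), and fibroblast markers were at 10.5 to 14.2 and 8.37 to 18.7 CPM (1 of 5 lower). The part of these genes in the changes of the members was not tested, and in bulk RNA fewer cells of a type and less RNA per cell cannot be told apart.

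After treatment, 3 of the 8 members were downregulated (*TERT*, *ACD*, and *TERF1*), 2 were upregulated (*TERF2* and *TERF2IP*), and 3 did not pass the test (*POT1*, *TINF2*, and *RTEL1*). A gene was called a differentially expressed gene (DEG) at an adjusted *p* under 0.05 in the quasi-likelihood test of edgeR. Of all 18066 genes, 35.2% were called in this comparison, 19.1% lower and 16.1% higher. The median log2 fold change was −0.64 over the 8 members and −0.08 over the 6 shelterin genes, against 0.24 over all genes. The normalized values of the conditions did not overlap for 7 of 8 members, *TINF2* being the exception, and 72.6% of all genes had no overlap. With the cell line as a replicate block, which compares each line with itself, 6 of 8 members were called in edgeR, with *POT1* added to the lower genes, beside 41.6% of all genes. DESeq2 with that block called 2 members higher and 3 lower, without *POT1*.

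**Figure D1:**
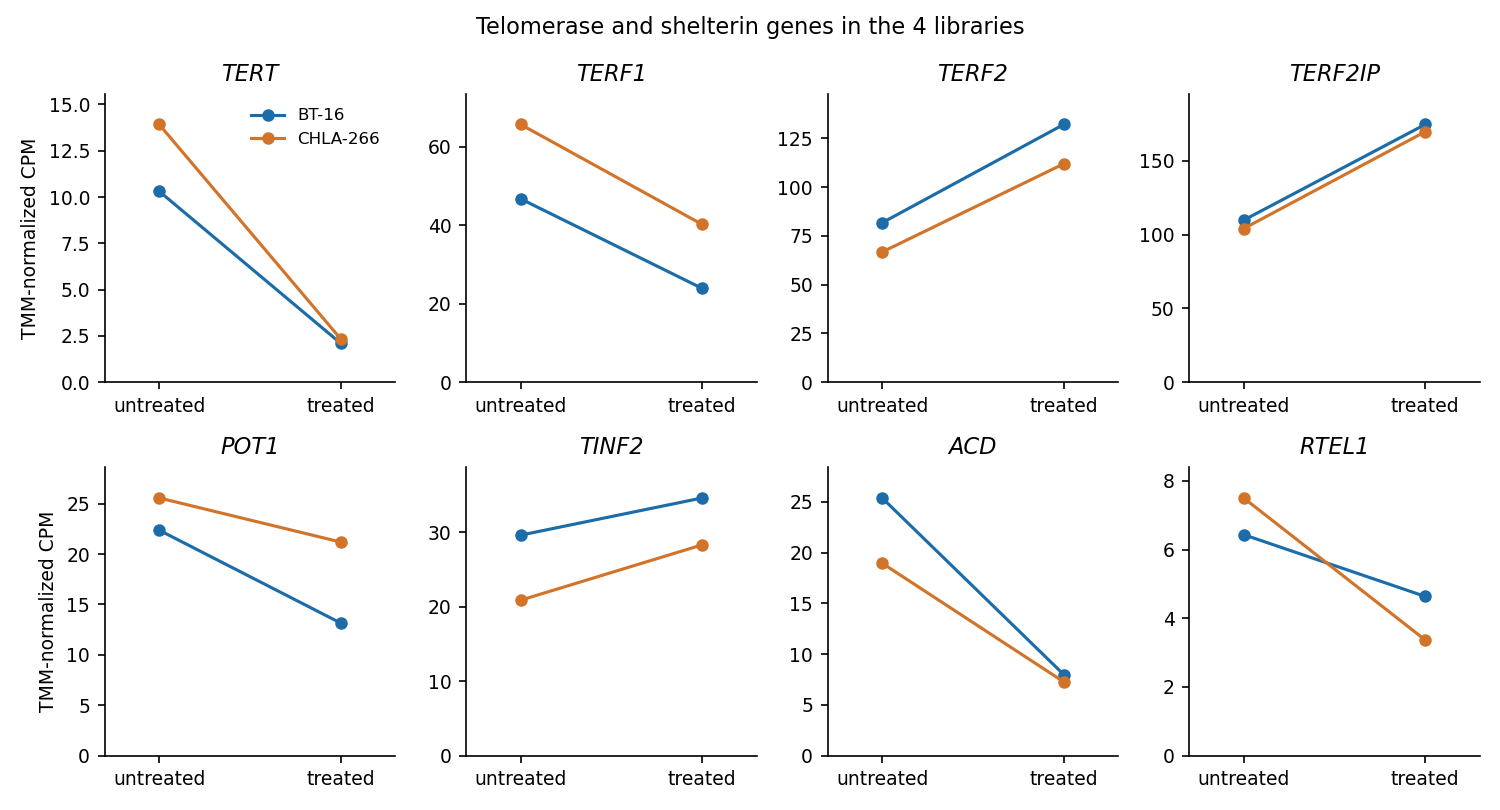
Normalized level of each member in the 4 libraries, in TMM-normalized CPM on an axis that starts at 0, with 1 line per cell line joining the untreated and the treated library (1 library per point, no error bars). The treated points of *TERT*, *ACD*, *TERF1*, *POT1*, and *RTEL1* lie lower in both lines and those of *TERF2*, *TERF2IP*, and *TINF2* lie higher, and the scale differs between the panels.

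*TERT*, the catalytic subunit of telomerase, showed the largest change among the members. The gene (ENSG00000164362) lies on hg38 at chr5:1253147-1295068 on the minus strand. BT-16 had 711 *TERT* counts before treatment and 121 after it, and CHLA-266 had 857 and 121. Normalized levels were 10.3 and 13.9 CPM in the untreated libraries and 2.09 and 2.33 CPM in the treated libraries (12.1 ± 2.56 against 2.21 ± 0.166, SD, *n* = 2 each). Both untreated libraries were high and both treated libraries were low, with no overlap. *TERT* was 5.48-fold lower after treatment, a log2 fold change of −2.45 (SE 0.33, adjusted *p* = 0.00103 in edgeR). Within lines, where only counting error can be given, the log2 ratio was −2.30 (95% interval −2.59 to −2.02) in BT-16 and −2.57 (−2.87 to −2.30) in CHLA-266. The fall was called under all 10 other settings of the analysis and without any 1 of the 4 libraries, and was smallest at −1.42 with limma on the variance-stabilized values.

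The remaining *TERT* reads of the treated libraries were few relative to exon length. The level per kilobase of exon went from 1.74 to 0.354 CPM per kb in BT-16 and from 2.35 to 0.393 CPM per kb in CHLA-266. Olfactory receptor genes, which tumor cells of this kind should not use, served as a measure of background reads. In the untreated libraries *TERT* lay above all 342 of these genes. In the treated libraries it lay above 90.1% of them (BT-16) and 93.9% (CHLA-266) but under their 95th percentile of 0.532 and 0.444 CPM per kb. Olfactory receptor genes with at least 1 count numbered 124 and 92 in the untreated and 300 and 214 in the treated libraries of BT-16 and CHLA-266. The level of *TERT* after treatment was thus within the range of these genes, and how many of its 121 counts per library are background was not tested.

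**Figure D2:**
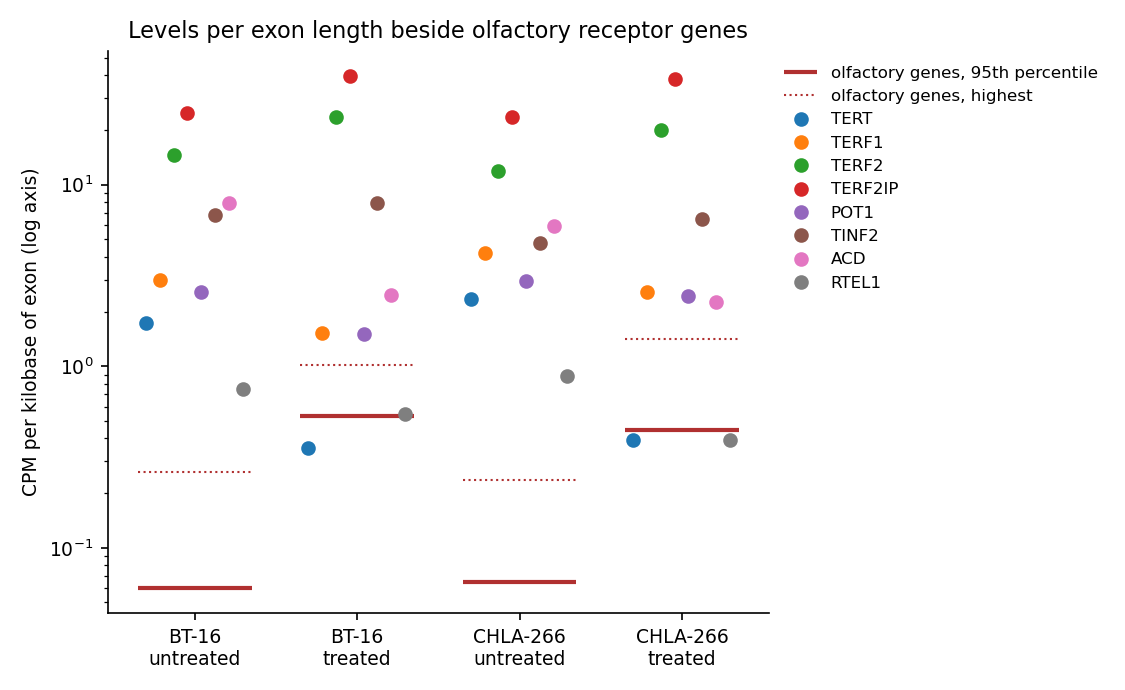
Level of each member in CPM per kilobase of exon on a log axis, by library, with the 95th percentile (solid red) and the highest value (dotted red) of 342 olfactory receptor genes. *TERT* and *RTEL1* stand above the highest olfactory gene in untreated cells and below it in treated cells, while the other 6 members stand above it in all 4 libraries. The position of *RTEL1* depends on how reads shared with its readthrough gene were counted, which is not stated.

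Of the genes that bind double-stranded repeats, *TERF1* fell and *TERF2* rose. *TERF1*, whose product TRF1 limits telomere lengthening and assists telomere replication, had 3224 counts before and 1381 after treatment in BT-16, with 4045 and 2089 in CHLA-266. Its levels were 46.7 and 65.7 CPM in untreated and 23.9 and 40.2 CPM in treated cells. Both treated libraries were below both untreated ones, although treated CHLA-266 cells came close to untreated BT-16 cells. *TERF1* was 1.76-fold lower (log2 fold change −0.81, SE 0.27, adjusted *p* = 0.0447 in edgeR), close to the threshold. The call was kept in 4 of 10 other settings (log2 fold change −0.84 to −0.47, adjusted *p* 0.000137 to 0.178) and was lost without treated BT-16 cells (0.0976) or without untreated CHLA-266 cells (0.225). As a paired comparison, with the line as a block, the log2 fold change was −0.84 (adjusted *p* = 0.000137 in edgeR). Within lines the log2 ratio was −0.97 (−1.06 to −0.88) in BT-16 and −0.71 (−0.79 to −0.63) in CHLA-266. The gene (ENSG00000147601) lies at chr8:73008856-73048123 on the plus strand. Pseudogenes of *TERF1* and *TERF2IP* are annotated, and how reads that match several places were counted is not stated.

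*TERF2*, whose product TRF2 forms the telomeric loop and keeps chromosome ends from being joined, had 5639 counts before and 7642 after treatment in BT-16, with 4109 and 5820 in CHLA-266. Levels were 81.8 and 66.8 CPM in untreated and 132 and 112 CPM in treated cells, with every treated library above every untreated one. The gene (ENSG00000132604, chr16:69355567-69408571, minus strand) was 1.64-fold higher after treatment (log2 fold change 0.72, SE 0.18, adjusted *p* = 0.0147 in edgeR). The rise was 0.69 (0.64 to 0.74) in BT-16 and 0.75 (0.69 to 0.80) in CHLA-266 on the log2 scale. It was called in all 10 other settings, and was lost in 1 of 4 fits with a library left out, that without untreated CHLA-266 cells (log2 fold change 0.58, adjusted *p* = 0.0972).

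*TERF2IP*, which encodes the TRF2 partner RAP1, rose by nearly the same amount. It had 7568 counts before and 10096 after treatment in BT-16, with 6405 and 8819 in CHLA-266. Levels were 109.7 and 104 CPM in untreated and 174.6 and 169.7 CPM in treated cells (106.9 ± 4.00 against 172 ± 3.49, SD, *n* = 2 each), so the lines were closer to each other for this gene than the conditions were. The gene (ENSG00000166848, chr16:75647773-75761872, plus strand) was 1.61-fold higher (log2 fold change 0.69, SE 0.15, adjusted *p* = 0.0100 in edgeR). *KARS1*, on the opposite strand with 176 shared exon bases, had 24815 counts before and 12129 after treatment in BT-16, with 21786 and 10029 in CHLA-266. Without untreated CHLA-266 cells the adjusted *p* was 0.0639 at a log2 fold change of 0.65, and with upper-quartile factors the log2 fold change was 1.04. The ratio of *TERF2IP* to *TERF2* counts was 1.34 before and 1.32 after treatment in BT-16, with 1.56 and 1.52 in CHLA-266, and so it differed more between the lines than between the conditions. The ratio of *TERF2* to *TERF1* counts, in contrast, went from 1.75 to 5.53 in BT-16 and from 1.02 to 2.79 in CHLA-266.

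**Figure D3:**
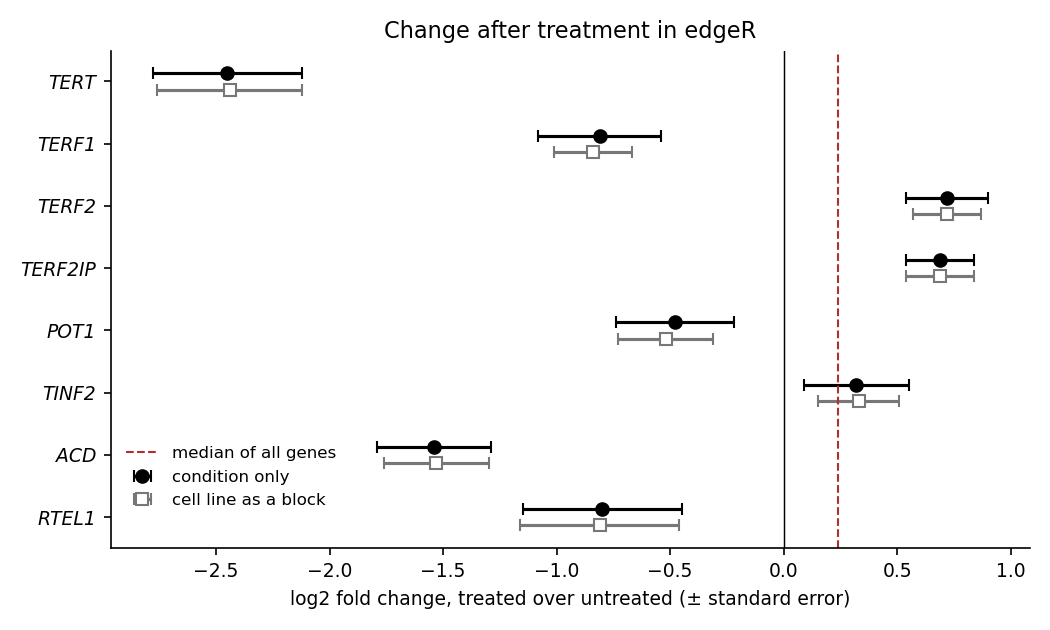
Log2 fold change of each member after treatment with its standard error, from edgeR models that leave out the cell line (filled circles) or include it as a block (open squares), beside the median of all genes at 0.24 (dashed red line). *TERT* at −2.45 and *ACD* at −1.54 lie farthest from 0, *TERF2* and *TERF2IP* lie above the median of all genes, and *TINF2* at 0.32 lies next to it.

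Among the genes of the overhang-binding and bridging proteins, *ACD* fell in both lines. *ACD* encodes TPP1, through which telomerase is brought to the chromosome end. It had 1752 counts before and 462 after treatment in BT-16, with 1168 and 378 in CHLA-266. Levels were 25.4 and 19.0 CPM in untreated and 7.99 and 7.27 CPM in treated cells, with no overlap and with the smaller spread in the treated cells. *ACD* (ENSG00000102977, chr16:67657512-67660810, minus strand) was 2.91-fold lower (log2 fold change −1.54, SE 0.25, adjusted *p* = 0.00254 in edgeR). The log2 ratio was −1.67 (−1.82 to −1.52) in BT-16 and −1.38 (−1.55 to −1.21) in CHLA-266. The call was kept in all 10 other settings and in all 4 fits with a library left out.

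*POT1*, which covers the single-stranded overhang as the partner of TPP1, had 1543 counts before and 760 after treatment in BT-16, with 1574 and 1101 in CHLA-266. Its levels were 22.4 and 25.6 CPM in untreated and 13.2 and 21.2 CPM in treated cells. The treated libraries were below the untreated ones, with a wider gap in BT-16 (log2 ratio −0.77, −0.89 to −0.64) than in CHLA-266 (−0.27, −0.38 to −0.16). Without the cell line in the model, *POT1* (ENSG00000128513, chr7:124822386-124929983, minus strand) did not pass the test (log2 fold change −0.48, SE 0.26, adjusted *p* = 0.178 in edgeR). It did once the line entered as a block (−0.52, SE 0.21, adjusted *p* = 0.0451 in edgeR), the only 1 of 10 other settings to call it. DESeq2 with the same block did not call it (−0.45, adjusted *p* = 0.183). Without treated CHLA-266 cells it passed (−0.86, adjusted *p* = 0.0160 in edgeR). Whether the lines differ in this response cannot be tested with 1 library per line and condition. The ratio of *POT1* to *ACD* counts went from 0.881 to 1.65 in BT-16 and from 1.35 to 2.91 in CHLA-266.

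*TINF2*, which encodes the bridging protein TIN2, was the only member whose conditions overlapped. It had 2044 counts before and 2002 after treatment in BT-16, with 1286 and 1472 in CHLA-266. Levels were 29.6 and 20.9 CPM in untreated and 34.6 and 28.3 CPM in treated cells, with treated CHLA-266 cells under untreated BT-16 cells. The log2 fold change was 0.32 (SE 0.23, adjusted *p* = 0.292 in edgeR), and 0.67 (adjusted *p* = 0.0454) with upper-quartile factors. Of the 4378 exon bases of *TINF2* (ENSG00000092330, chr14:24238286-24242663, minus strand), 27.9% overlap genes on the opposite strand, 957 of them the gene *GMPR2*. The library kit keeps the strand, but the strand setting of the counting is not stated, so reads of *TINF2* and *GMPR2* may not have been told apart. *GMPR2* had 4969 counts before and 3687 after treatment in BT-16, with 4011 and 2526 in CHLA-266.

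*RTEL1*, the telomere helicase gene, had the lowest level per exon length in untreated cells. It had 444 counts before and 268 after treatment in BT-16, with 462 and 175 in CHLA-266. Levels were 6.44 and 7.51 CPM in untreated and 4.64 and 3.37 CPM in treated cells, without overlap. The log2 fold change of −0.80 (SE 0.35, adjusted *p* = 0.106 in edgeR) did not pass the threshold, nor did it in any of the 10 other settings or 4 fits with a library left out. The log2 ratio was −0.47 (−0.70 to −0.25) in BT-16 and −1.15 (−1.42 to −0.90) in CHLA-266. The values of *RTEL1* (ENSG00000258366, chr20:63657810-63696253, plus strand) are uncertain, because 52.9% of its exon bases are shared with the readthrough gene *RTEL1-TNFRSF6B* on the same strand. Of that readthrough, *TNFRSF6B* itself had 0 counts in all 4 libraries. How reads in exons shared between genes were counted is not stated, so these 0 counts do not show whether the readthrough is made. The levels of *RTEL1* per exon length divide by all 8542 exon bases and would be too low if shared reads were dropped.

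The make-up of the shelterin RNA differed between the conditions in the same direction in both lines for every shelterin gene except *TINF2*. The 6 shelterin genes together had 315.6 and 301.9 CPM in untreated and 386.5 and 378.7 CPM in treated BT-16 and CHLA-266 cells. Of their counts, which are not divided by gene length here, *TERF2IP* took 34.8% and 45.2% in untreated and treated BT-16 and 34.5% and 44.8% in CHLA-266. The share of *TERF2* went from 25.9% to 34.2% and from 22.1% to 29.6%. The share of *TERF1* went from 14.8% to 6.18% in BT-16 and from 21.8% to 10.6% in CHLA-266. That of *ACD* went from 8.05% to 2.07% and from 6.28% to 1.92%. *POT1* went from 7.09% to 3.40% and from 8.47% to 5.60%. *TINF2* moved least, from 9.39% to 8.96% and from 6.92% to 7.48%, in opposite directions in the lines. With 18587 to 22343 counts behind each library's shares, the difference between the conditions is larger than that between the lines for *TERF2IP*, *TERF2*, *TERF1*, *POT1*, and *ACD*. These shares have only 2 libraries per condition, for which an exact permutation test cannot give a two-sided *p* under 0.333, so none was run.

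**Figure D4:**
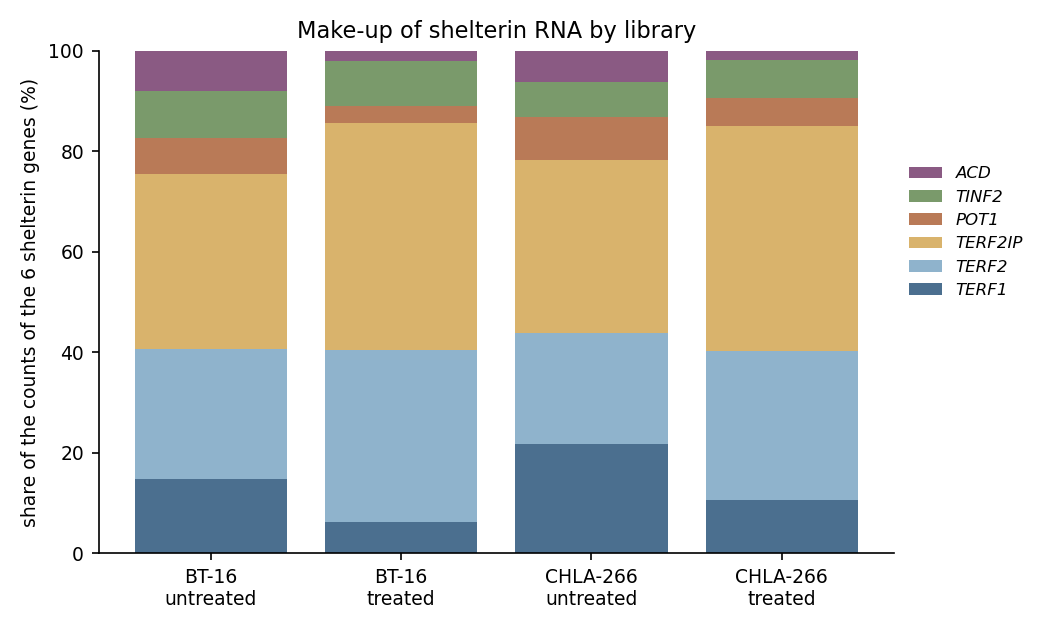
Share of the counts of the 6 shelterin genes taken by each gene (percent, stacked to 100), by library, without division by gene length. In both lines the treated libraries have larger parts of *TERF2IP* and *TERF2* and smaller parts of *TERF1*, *POT1*, and *ACD* than the untreated libraries.

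Compared per kilobase of exon, *TERF2IP* and *TERF2* were the most abundant members in all 4 libraries. *TERF2IP* had 24.8 and 23.5 CPM per kb in untreated and 39.5 and 38.4 CPM per kb in treated BT-16 and CHLA-266. *TERF2* followed with 14.5 and 11.9, and 23.5 and 19.9 CPM per kb. In untreated cells *ACD* came next (7.89 and 5.90 CPM per kb), and in treated cells *TINF2* did (7.91 and 6.47). In untreated cells *TINF2* (6.77 and 4.77 CPM per kb) overlapped with *ACD*, and *TERF1* (2.98 and 4.18) stood above *POT1* (2.57 and 2.93). In treated cells *ACD* (2.48 and 2.26 CPM per kb) overlapped with *TERF1* (1.52 and 2.56) and *POT1* (1.51 and 2.43). *TERT* and *RTEL1* were the lowest members throughout. In treated cells *TERT* (0.354 and 0.393 CPM per kb) stood below *RTEL1* (0.543 and 0.394), with nearly equal values in CHLA-266. The exon length used is the union of all annotated transcripts, which for *TERF1* is 15706 bases against 3329 in its MANE Select transcript. With that transcript length, chosen after the data were seen, *TERF1* stood at 14.0 and 19.7 CPM per kb in untreated and 7.18 and 12.1 in treated BT-16 and CHLA-266, against 16.8 and 12.6, and 5.29 and 4.81, for *ACD*, so the order of these genes depends on the length used. *TERT* then had 0.518 and 0.577 CPM per kb in treated BT-16 and CHLA-266, against 95th percentiles of 0.598 and 0.474 for the olfactory receptor genes.

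The cell lines themselves differed in 1 of the 8 members, *TERF1*, beside 2.3% of all genes called in this comparison. *TERF1* was higher in CHLA-266 than in BT-16, by 0.49 on the log2 scale in untreated and 0.75 in treated cells. The log2 difference with condition in the model was 0.62 (SE 0.17, adjusted *p* = 0.0389 in edgeR). It was kept in 4 of 8 other settings (adjusted *p* 0.00651 to 0.307). *POT1* (0.44, adjusted *p* = 0.464 in edgeR) and *TINF2* (−0.40, adjusted *p* = 0.436) had an unadjusted *p* under 0.05 as well and did not pass after adjustment. *TERT* differed by 0.30 (SE 0.31, adjusted *p* = 0.914), with CHLA-266 above BT-16 by 0.43 in untreated and 0.15 in treated cells. For *ACD*, *TERF2*, *TERF2IP*, and *RTEL1*, the differences were −0.28, −0.27, −0.06, and −0.11.

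The other genes of telomere maintenance, taken from 4 lists written from general knowledge with earlier results of these data known, mostly fell. Of 63 genes, 59 were tested, with a median log2 fold change of −0.72. Of these, 35 were downregulated and 4 upregulated, beside 19.1% and 16.1% of all genes called in these directions. The number downregulated was 27 with upper-quartile factors, 28 with library totals, and 39 with the line as a block in edgeR. In the list of telomerase assembly, 7 of 13 genes fell and 1 rose (median −0.69). With the line as a block in edgeR, 10 were called lower. *NHP2*, part of the complex that stabilizes the telomerase RNA, had 12824 counts before and 3727 after treatment in BT-16, with 8767 and 2953 in CHLA-266 (log2 fold change −1.44, adjusted *p* = 0.00078 in edgeR). The ATPase genes *RUVBL1* and *RUVBL2*, needed to assemble telomerase, fell by 1.38 and 0.99. *TEP1*, which encodes a telomerase-associated protein, was the gene that rose (log2 fold change 1.25, adjusted *p* = 0.00128). *TERC* and *DKC1* were not analysed here.

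The CST complex limits telomerase and, with DNA polymerase alpha-primase, fills in the C-rich strand. Of 6 genes tested in that list, 3 fell and 1 rose (median −0.52). The 3 that fell belong to polymerase alpha-primase, namely *PRIM1* (log2 fold change −3.92, adjusted *p* = 5.77e-05 in edgeR), *POLA2* (−2.18), and *PRIM2* (−1.18). *STN1*, a CST subunit, was the gene that rose, with 4329 counts before and 8294 after treatment in BT-16, against 3548 and 8641 in CHLA-266 (log2 fold change 1.36, adjusted *p* = 0.000566). *POLA1* was not analysed here.

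Among 26 factors that act with shelterin, 15 fell and 1 rose (median −0.64). *EXO1*, a nuclease that resects chromosome ends, had 4560 counts before and 51 after treatment in BT-16, with 4999 and 98 in CHLA-266 (log2 fold change −5.74, adjusted *p* = 1.17e-05 in edgeR). The helicase gene *BLM* had a log2 fold change of −5.29 and the nuclease-helicase gene *DNA2* one of −3.27, and both fell in both lines. *SMG6*, which encodes a telomerase-associated protein that also acts in RNA decay, rose by 0.55 (adjusted *p* = 0.0374). Alternative lengthening of telomeres (ALT) is the recombination route that some tumors use in place of telomerase. Of 14 genes linked to it, 10 fell and 1 rose (median −0.93), with *POLD3* (−3.23), *ASF1B* (−3.48), and *RMI1* (−2.08) falling and *ZNF827* rising (1.52, adjusted *p* = 0.0136). *ATRX* was not analysed here. With the line as a block, 3 in place of 1 of the factors that act with shelterin were called higher. In that fit, 16 in place of 15 of them were called lower.

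Of 17 genes encoding regulators of *TERT* transcription, 6 rose, 4 fell, and 7 did not pass (median 0.06). *MXD1*, which competes with MYC for MAX and represses E-box genes, had 721 counts before and 2457 after treatment in BT-16, with 838 and 2249 in CHLA-266 (log2 fold change 1.83, adjusted *p* = 0.000414 in edgeR). *MAX*, the shared partner, rose by 0.92 (adjusted *p* = 0.00587), and *KLF4* rose by 2.53 (adjusted *p* = 0.0047) from 49 and 63 counts. *E2F1*, a driver of S phase genes, fell by 3.21 (adjusted *p* = 0.00159), *SP3* by 0.97, and *CTCF* by 0.66. *MYC*, chosen after its values were seen, had 14275 counts before and 6804 after treatment in BT-16, with 11515 and 7505 in CHLA-266 (log2 fold change −0.59, adjusted *p* = 0.0289). *ETS1*, likewise chosen after its values were seen, had 12 counts before and 95 after treatment in BT-16, with 16 and 66 in CHLA-266. It was called higher (log2 fold change 2.74, adjusted *p* = 0.0289 in edgeR), while *ETS2* (0.16) and *GABPA* (−0.42) did not pass the test. With the line as a block, 5 regulators were called lower, among them *GABPA* (−0.41, adjusted *p* = 0.0379 in edgeR). *MYCN*, also chosen after its values were seen, had 0 counts in both untreated libraries and 58 and 8 in treated BT-16 and CHLA-266, at least 12.6-fold higher against a floor of 3 counts per library. That bound rests on treated BT-16 cells, being 23.1-fold in BT-16 and 3.16-fold in CHLA-266. It is a bound on counts, and more olfactory receptor genes had counts in the treated than in the untreated libraries. How many of the *MYCN* and *ETS1* counts are background was not tested.

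Proliferation genes are given beside these lists because several telomere factors are known to be made in S phase. All 19 fell, with a median log2 fold change of −3.58, −3.71 in BT-16 and −3.99 in CHLA-266. These low values come from libraries that, according to the methods, hold cells that grew again after treatment. How fast the treated cells were dividing at harvest was not tested. *MKI67* had 109853 counts before and 1262 after treatment in BT-16, with 96814 and 1386 in CHLA-266 (log2 fold change −6.03, adjusted *p* = 1.92e-06 in edgeR). *RRM2* and *TOP2A* had log2 fold changes of −5.54 and −4.98 (both adjusted *p* = 1.92e-06). The smallest falls in the list, −2.30 for *MCM2* and −2.35 for *PCNA*, were slightly smaller than that of *TERT* (−2.45), so *TERT* lay at the edge of the range of these genes. These 2 genes were chosen after their values were seen. The fall of *ACD* (−1.54) was smaller than that of every gene in the list. The part of the proliferation genes in the values of the members was not tested.

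**Figure D5:**
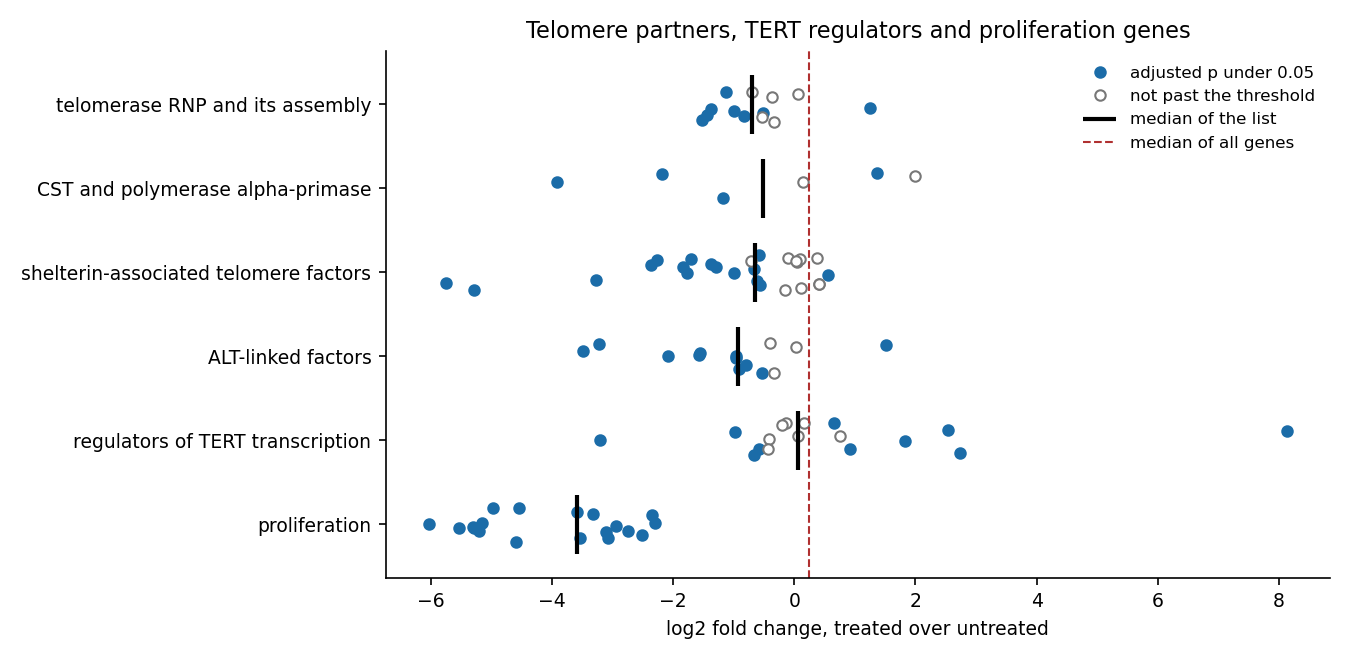
Log2 fold change after treatment of each tested gene of the 6 lists (filled, adjusted *p* under 0.05 in edgeR; open, not past the threshold), with the median of each list (black bar) and of all genes (dashed red line at 0.24). The proliferation genes lie farthest to the left, the telomere lists lie left of the median of all genes, and the point at 8.13 is *MYCN*, whose fitted value depends on the fit because its untreated counts are 0.

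The genes whose pattern over the 4 libraries was nearest to that of *TERT* were *NASP*, *CD74*, and *RBL1*, by Euclidean distance of centred log2 CPM among 16068 genes. *NASP*, which encodes a histone chaperone, had a distance of 0.114, with 35498 counts before and 5564 after treatment in BT-16, against 38773 and 5851 in CHLA-266. *CD74* (distance 0.124) had only 6 to 49 counts per library, and *RBL1*, which encodes the RB-related protein p107, had a distance of 0.146. For *RTEL1* the nearest genes were *CCDC82* (0.074), *ANKRD61* (0.081), and *LYSET* (0.089). These distances describe 4 libraries and have no test.

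The scaling of the libraries moved all members together. The median log2 fold change of all genes was 0.24 with TMM, 0.31 with the size factors of DESeq2, 0.59 with upper-quartile factors, and 0.46 with library totals. Relative to that median, *TERT* was at −2.69, *ACD* at −1.78, *TERF1* at −1.05, *RTEL1* at −1.04, *POT1* at −0.72, *TINF2* at 0.08, *TERF2IP* at 0.45, and *TERF2* at 0.48 with TMM. No member changed sign under any of these scalings.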

How the data were processed

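Bulk RNA of BT-16 and CHLA-266 cells, untreated and treated, was measured in 4 libraries (1 per line and condition), prepared with a stranded SMART-Seq kit and sequenced as paired reads. The authors demultiplexed with bcl2fastq 2.20, trimmed adapters, aligned to hg38 with STAR (version not given in the sources used here), counted per gene, added symbols, and removed repeated and sex-chromosome genes. The estimated counts deposited by the authors are not normalized. Rounding was needed for 5 values, in 2 genes. The log2 values deposited by the authors come from the variance-stabilizing transformation of DESeq2 and cover 17553 genes, those whose 4 counts add up to 10 or more. How strands and read pairs were counted is not stated, and 20.5% to 34.2% of counts from 1 to 20 were odd, so counting intervals may be too narrow. They cover counting error only.

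Symbols with a total of 0 (383) were left out. The effect of treatment was tested with edgeR 4.0.16 in R 4.3.3 (quasi-likelihood test, TMM, Benjamini-Hochberg over 18066 genes, threshold 0.05), with condition as the only term. The lines were compared with condition in the model. Common dispersions were 0.14 without and 0.0712 with the line as a term. The libraries are paired by the cell line itself. Deviations from the condition means correlated at 0.257 between conditions over 12620 genes, which are not independent. Ratios within a line had 0.5 counts added and exact Clopper-Pearson 95% intervals. Alternatives were a replicate block for the line in edgeR, DESeq2 1.42.0 (without and with that block), 3 other scalings, 2 filters on low counts (one at 10 counts in every library), limma 3.58.1 on the log2 values, halved counts, and each library left out. Exon lengths and coordinates come from GENCODE 44 on hg38 (18357 symbols with a length). The fits were tested on simulated data.

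Every member is described, and of each list the called genes with the 3 smallest adjusted p values per direction are named, with the genes not analysed here, some genes that overlap a member, and the 3 genes nearest in pattern to *TERT* and *RTEL1*. *TERT*, *TERF2*, *TERF2IP*, *POT1*, and *ACD* share 1.27% to 3.98% of their exon bases with other genes, and *TERF1* shares 0%. Of those genes, *KARS1* (at *TERF2IP*) and *CARMIL2* (at *ACD*) are in the count table. The members and lists were chosen with earlier results of these data known.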

Additional observations from a re-analysis of the deposited data

How the results depend on the processing

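The directions of the 8 members did not reverse under any alternative. Of 112 member values after treatment under the alternatives, 99 kept their direction and side of the threshold, 10 lost the call (8 of them *TERF1*, and *TERF2* and *TERF2IP* without untreated CHLA-266 cells), and 3 gained one. The number of members called higher was 2, 3 with upper-quartile factors, and 0 to 2 with a library left out, 0 without untreated CHLA-266 cells. The number called lower was 3, and 2 to 4 under the alternatives. With the cell line as a replicate block, in which the paired libraries of a line are compared, 2 members were higher and 4 lower in edgeR, where *POT1* was the only member call that it changed, and 2 higher and 3 lower in DESeq2, where *POT1* was not called (adjusted *p* = 0.183). The number of members that differed between the lines was 1, and 0 with DESeq2, with at least 10 counts in every library, with the filter of edgeR, and with limma on the log2 values. In edgeR, 3 of 8 had an unadjusted *p* under 0.05 in that comparison. No library could be left out there, because no residual degrees of freedom would remain. Among the telomere partners, the number called lower was 35. It was 27 with upper-quartile factors, 28 with library totals, and 39 with the line as a block in edgeR. The number called higher was 4, and 7 with upper-quartile factors and with library totals. With a library left out it was 2 to 4, lowest without untreated CHLA-266 cells. The cause of these differences was not tested. The treated levels of *TERT* and *RTEL1* rest on 121 counts per library and on 268 and 175 counts.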
